A study of Mus musculus with 6 samples.

Results

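The genes that carry the circadian clock's signal to its targets were followed in mouse left ventricle: Dbp, Tef, Hlf, Nfil3, Ciart, Bhlhe40, Bhlhe41 and Rora. The rows of the members were found by gene symbol, 8 genes of the 55487 listed, and all 8 were among the 15727 with enough counts to be tested. Bulk RNA sequencing had been done on ventricles of 8-week-old male C57BL/6 wild-type mice after the NIAAA feeding model. Mice of the ET group (3 libraries) ate a 5% ethanol diet over 10 days, ended by 1 binge dose of ethanol given by gavage, and their disease state is labelled alcoholic cardiomyopathy. Mice of the CONT group (3 libraries) ate an isocaloric diet instead and were gavaged with maltose-dextrin. Hearts of both groups were taken 9 h after the gavage, and the hour of the day is not given in the sources used here. The labels do not say that each library came from a separate mouse, so the spread between libraries may be technical. The 8 members were selected on expression differences of ET against CONT seen in these same libraries. Their differences between the groups are therefore given as a description, with no test.

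In mammals the factors CLOCK and BMAL1 bind a DNA motif called the E-box and drive rhythmic transcription. Among their direct targets is Dbp, which with Tef and Hlf forms the PAR bZIP family, activators that bind a second motif, the D-box, while Nfil3 (also called E4BP4) is a bZIP repressor that binds the same D-box letters. Ciart (CHRONO) and the DEC proteins encoded by Bhlhe40 and Bhlhe41 repress transcription driven by CLOCK and BMAL1. Rora encodes a nuclear receptor that activates genes through the ROR element, which the repressors REV-ERB alpha and beta (Nr1d1 and Nr1d2) also bind. In many rodent tissues, the heart included, Dbp and Nfil3 messages peak at opposite times of day.

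Promoter windows of 250 bases upstream of a RefSeq transcription start (GRCm38.p6) were read for 7 of the 8 members, all but Bhlhe40. The motifs were searched on both strands and do not overlap each other in the windows shown. They were the E-box CACGTG, the D-box TTATGTAA or TTACGTAA, and the ROR half-site TAGGTCA. Of 32851 windows of the same length, 6.02% held an E-box, 0.932% a D-box and 2.23% a ROR half-site. Ciart is shown because it held 3 E-boxes, which 0.0609% of all windows do, with first bases 116, 58 and 44 bases before the start. Tef held 1 E-box in each of its 2 windows and Bhlhe41 held 1. Nfil3 is shown because it held a ROR half-site, read on the opposite strand as TGACCTA, 12 bases before the start. Per3, a clock gene outside the 8, is shown because it held 2 D-boxes, 205 and 158 bases before its start, as 0.0213% of all windows do. The windows of Dbp, Hlf and Rora held none of these letters. In the sequences, written 5′ to 3′ on the gene's strand, capitals mark the motifs.
Ciart, chr3:95882229-95882478, minus strand: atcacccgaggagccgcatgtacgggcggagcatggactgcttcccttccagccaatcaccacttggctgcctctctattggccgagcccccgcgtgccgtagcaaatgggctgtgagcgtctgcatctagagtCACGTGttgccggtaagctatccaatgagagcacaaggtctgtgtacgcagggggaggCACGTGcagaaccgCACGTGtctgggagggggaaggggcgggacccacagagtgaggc
Nfil3, chr13:52981040-52981289, minus strand: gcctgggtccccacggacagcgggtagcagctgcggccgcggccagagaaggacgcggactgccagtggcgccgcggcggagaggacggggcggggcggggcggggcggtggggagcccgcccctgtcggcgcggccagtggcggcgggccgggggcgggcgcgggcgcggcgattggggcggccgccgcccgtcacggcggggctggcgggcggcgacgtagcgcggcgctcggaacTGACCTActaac
Per3, chr4:151044666-151044915, minus strand: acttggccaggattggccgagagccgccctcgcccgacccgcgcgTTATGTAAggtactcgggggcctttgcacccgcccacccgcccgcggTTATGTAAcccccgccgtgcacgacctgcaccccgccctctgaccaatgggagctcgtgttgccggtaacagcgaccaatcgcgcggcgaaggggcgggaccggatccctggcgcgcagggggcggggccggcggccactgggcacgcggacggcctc

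The libraries held 28838386 to 37762233 expected counts, and 143 to 6418 of these belonged to each member in each library. Levels between libraries are given as CPM, counts scaled to library size with edgeR's TMM factors. The edgeR quasi-likelihood test called 0 of 15727 genes (0%) at an adjusted p under 0.05, while 1360 (8.65%) had an unadjusted p under 0.05, and DESeq2 called 185 of 15365 (1.2%). Neither test called any of the 8 members. Markers of cardiomyocytes were abundant in all libraries, Myh6 at 15390 CPM or more. ET replicates 1 and 3 and CONT replicate 3 stood apart in atrial markers or in markers of other cells. The summed CPM of 5 atrial markers was 8821, 334 and 58.8 in ET replicates 1 to 3, against 118, 75.2 and 1539 in CONT replicates 1 to 3. ET replicate 1 also had the lowest sum of 8 cardiomyocyte markers (29660, against 45730 or more elsewhere) and the highest sum of 5 fibroblast markers (1471, against 632 or less). ET replicate 3 had the highest sum of 4 hepatocyte markers (63.5, against 4.69 or less) and of 4 neutrophil markers (40.7, against 6.99 or less). The libraries also fell into 2 sets by the effective length of their genes, the transcript length that RSEM used. Set 1 held ET replicate 1 beside CONT replicates 1 and 2, while set 2 was made up of ET replicates 2 and 3 plus CONT replicate 3. These sets cross the groups, and each holds 1 library of one of the groups, so the ratios within sets have no test.

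Among the activators, Dbp lay below CONT in every ET library, Tef and Hlf overlapped between the groups, and Dbp gave a smaller part of the PAR bZIP message in each ET library than in any CONT library. Dbp had 62.4, 57.9 and 32.9 CPM in ET replicates 1 to 3, against 176, 110.1 and 77.4 CPM in CONT replicates 1 to 3. The groups did not overlap, though the spread inside CONT (2.27-fold) was close to the ratio of the group means. Dbp averaged 51.1 ± 15.9 CPM in ET and 121 ± 50.03 CPM in CONT (SD, n = 3 each), a log2 fold change of -1.24 ± 0.36 (SE, ET over CONT). Over all genes tested, 8.36% lay below CONT in every ET library in the same way. Within the sets Dbp's log2 ratio was -1.19 in set 1 and -0.77 in set 2, and leaving out 1 library at a time gave -1.47 to -0.87. Dbp (chromosome 7, 45705088 to 45710203, plus strand, GRCm38) shares 18.0% of its exon bases with Sphk2 on the opposite strand. Sphk2 encodes a sphingosine kinase and had 13.7, 13.9 and 22.1 CPM in ET and 11.1, 12.2 and 16.3 CPM in CONT, so its highest library was the one where Dbp was lowest.

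The sum of the endothelial markers was, like Dbp, lowest in ET replicate 3 and highest in CONT replicates 1 and 2, but its members did not move alike. The summed CPM of all 4 (Pecam1, Cdh5, Kdr and Tie1, all with counts in every library) was 720, 653 and 460 in ET and 973, 873 and 500.3 in CONT, and the groups overlapped. Pecam1 had 309.8, 188 and 162 CPM in ET and 206, 200.1 and 138 CPM in CONT, a log2 fold change of 0.28. Kdr, a VEGF receptor, had 104, 108 and 68.8 CPM in ET and 254, 207 and 117 CPM in CONT (-1.04), and Cdh5 (-0.44) and Tie1 (-0.50) lay between these genes. None of the 4 passed the edgeR test (lowest adjusted p 0.515). Their part in the Dbp values was not tested. In bulk tissue, fewer cells of a type and less RNA per cell cannot be told apart.

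Tef, the most evenly expressed of the activators, had 128, 154 and 139 CPM in ET and 171, 139 and 162 CPM in CONT. The groups overlapped, and the log2 fold change was -0.17 ± 0.16. Hlf, named for hepatic leukaemia factor, had 29.3, 25.3 and 21.1 CPM in ET and 28.4, 22.4 and 29.1 CPM in CONT. Its groups overlapped, with a log2 fold change of -0.08 ± 0.17 whose sign depended on the scaling. The log2 fold change of Hlf was 0.044 with library totals only and 0.41 on log2(TPM + 1), scales on which the median of all genes was itself shifted to 0.12 and 0.15.

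**Figure D1:**
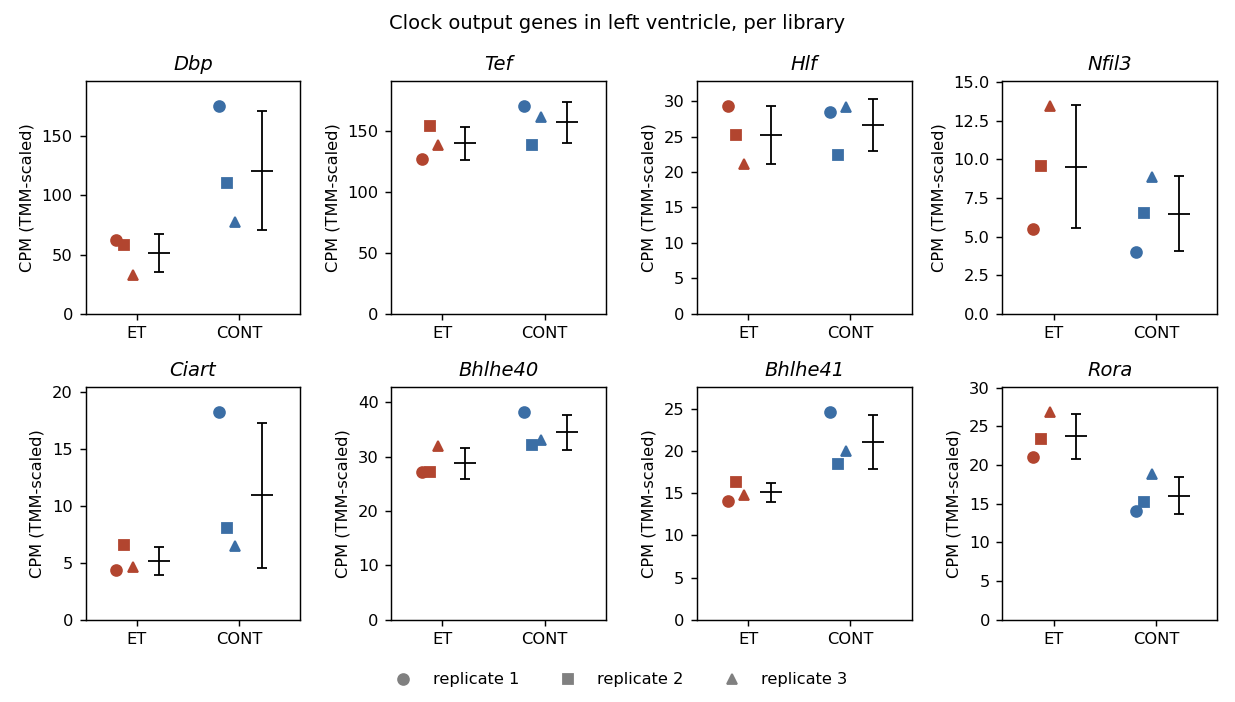
TMM-scaled CPM of the 8 members (vertical axes, from 0) in the 3 ET and 3 CONT libraries, with marker shape for the replicate and a bar for mean ± SD. Dbp and Bhlhe41 lay lower and Rora higher in all 3 ET libraries than in any CONT library, the gap in Bhlhe40 was 0.0278 CPM, and the other 4 genes overlapped.

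Per transcript length, which TPM takes into account, the makeup of the PAR bZIP pool differed between the libraries. Dbp supplied 46.3%, 43.1% and 31.9% of the summed Dbp, Tef and Hlf TPM in ET replicates 1 to 3, against 65.4%, 60.1% and 47.3% in CONT replicates 1 to 3. Every ET share lay below every CONT share, with ET replicate 1 and CONT replicate 3 nearly level. Tef supplied the larger share in ET replicates 2 and 3 (51.7% and 60.4%), and in CONT replicate 3 both genes stood level at 47.4% for Tef. The summed TPM was 115, 104 and 70.0 in ET and 173, 116 and 116 in CONT, so the nearest libraries of the groups differed little. Tef itself stayed between 42.3 and 55.1 TPM in all 6 libraries, and Dbp ranged from 22.3 to 113 TPM.

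**Figure D2:**
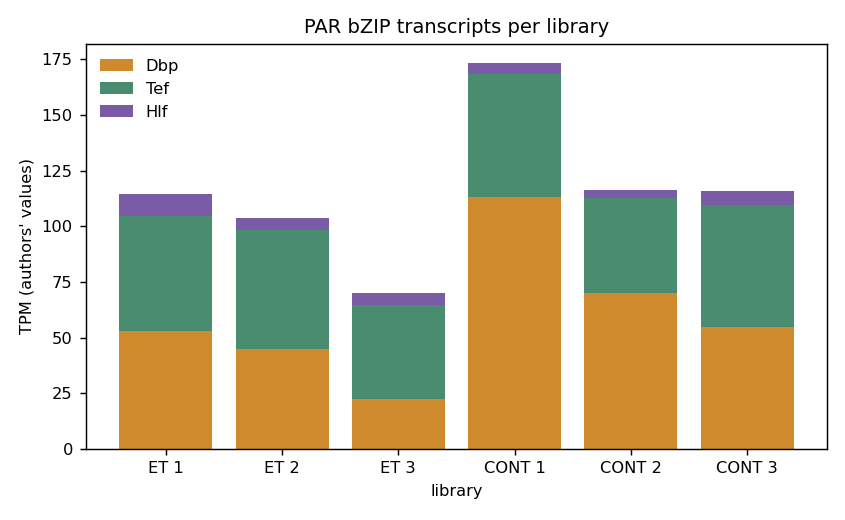
Stacked TPM of Dbp, Tef and Hlf (vertical axis, from 0) in each ET and CONT library. The Tef segment had a similar height in all 6 libraries, and the Dbp segment was the one that varied, from 22.3 TPM in ET replicate 3 to 113 TPM in CONT replicate 1.

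Nfil3, the repressor at the D-box, ran nearly opposite to Dbp over the libraries without separating the groups. It had 5.52, 9.58 and 13.5 CPM in ET replicates 1 to 3, against 3.99, 6.55 and 8.88 CPM in CONT replicates 1 to 3. Its lowest library, CONT replicate 1, was the highest for Dbp, and its highest, ET replicate 3, was the lowest for Dbp. The groups overlapped, with a log2 fold change of 0.56 ± 0.39 that was 0.07 in set 1 and 0.38 in set 2. The log2 fold change was 0.22 without ET replicate 3, 0.87 without CONT replicate 3 and 0.23 with a term for the library set. Nfil3 split by library set, since every library of set 1 lay below every library of set 2. ET replicate 3, highest for both Nfil3 and Rora and lowest for Dbp, was also the library with the highest neutrophil and hepatocyte sums. The neutrophil sum was 6.99, 2.26 and 40.7 CPM in ET and 1.64, 3.82 and 6.95 CPM in CONT, and its part in these values was not tested. As a ratio of TPM, Dbp over Nfil3 was 15.5, 8.49 and 3.37 in ET, against 60.2, 23.6 and 11.6 in CONT. The ratio of the groups' nearest libraries overlapped, since ET replicate 1 lay above CONT replicate 3. Nfil3 (chromosome 13, 52967209 to 52981073, minus strand) shares no exon bases with another gene.

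The E-box repressors lay mostly lower in ET, each to a different degree. Ciart had 4.35, 6.61 and 4.65 CPM in ET and 18.3, 8.09 and 6.51 CPM in CONT. CONT replicate 1 stood far above the other 5 libraries, and ET replicate 2 lay just above CONT replicate 3, so the groups overlapped. Its log2 fold change of -1.07 ± 0.40 became -0.48 without CONT replicate 1, and it was -1.60 in set 1, which holds that library, and -0.21 in set 2.

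Bhlhe40 (DEC1), a bHLH repressor also induced by stress and hypoxia, had 27.1, 27.1 and 32.0 CPM in ET and 38.2, 32.1 and 33.1 CPM in CONT. The groups were apart by 0.0278 CPM only, and they overlapped with library totals in place of TMM factors and in TPM. Its log2 fold change was -0.26 ± 0.14, and 0.0025 on log2(TPM + 1), where the median of all genes lay at 0.15.

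Bhlhe41 (DEC2), its close paralog, had 14.1, 16.3 and 14.8 CPM in ET and 24.6, 18.5 and 20.0 CPM in CONT. The groups did not overlap in CPM with either scaling but did in TPM (3.20, 4.52 and 3.53 in ET, 4.67, 3.39 and 5.25 in CONT). The log2 fold change was -0.48 ± 0.15, and -0.61 and -0.36 within the sets. Bhlhe41 (chromosome 6, 145858243 to 145865558, minus strand) shares 19.1% of its exon bases with Gm43909 on the opposite strand, which had 0.358 to 0.720 CPM in ET and 0.947 to 1.83 CPM in CONT.

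Rora, the activating receptor, was the member higher in ET without overlap. It had 21.1, 23.3 and 26.9 CPM in ET replicates 1 to 3, against 14.1, 15.3 and 18.8 CPM in CONT replicates 1 to 3. All 3 ET libraries lay above all CONT libraries, also with library totals and in TPM, where ET had 2.84, 3.0 and 2.76 and CONT 1.65, 1.62 and 2.21. Rora averaged 23.7 ± 2.92 CPM in ET and 16.1 ± 2.43 CPM in CONT (SD, n = 3 each), a log2 fold change of 0.56 ± 0.16. Over all genes, 6.89% lay above CONT in every ET library. The within-set values were 0.52 and 0.42, and leaving out 1 library at a time gave 0.46 to 0.70. Rora spans chromosome 9 from 68653786 to 69388246 (plus strand) and overlaps Gm15511, antisense to it, over 0.627% of its exon bases.

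In all, 4 of the 8 members did not overlap between the groups, 1 above and 3 below CONT, where 15.2% of all genes tested did not overlap. The members were chosen with this contrast in view, so nothing is read from that count. The median log2 fold change was -0.21 over the members and 0.01 over all genes tested. In mean TPM the order in ET was Tef (49.1), Dbp (40.0), Bhlhe40 (10.8), Hlf (7.003), Ciart (5.17), Nfil3 (5.10), Bhlhe41 (3.75) and Rora (2.87). In ET the neighbours Dbp and Bhlhe40, Bhlhe40 and Hlf, and Bhlhe41 and Rora had separate ranges, and the other neighbours overlapped. The order in CONT was Dbp (79.3), Tef (50.9), Bhlhe40 (10.9), Ciart (8.81), Hlf (4.90), Bhlhe41 (4.44), Nfil3 (3.19) and Rora (1.83). In CONT the ranges of Tef and Bhlhe40 were the one neighbouring pair that was separate.

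The members could also be set in order across the libraries. From low to high, Dbp ran through ET replicates 3, 2 and 1 and then CONT replicates 3, 2 and 1. Rora ran through the same libraries from high to low, the exact reverse. Dbp and Rora each separated the groups, and the members were chosen on that contrast, so part of this reversal follows from the choice. The order was not particular to Rora. Mpp6, Chp1, Lrrc58 and Dennd4c, picked below as closest to Rora in pattern, had the same order. The share of all genes with either order was not counted, so nothing is read from the reversal. Nfil3 took Rora's order except that ET replicate 1 came between CONT replicates 2 and 1. Within each group the libraries of set 1 lay above those of set 2 for Dbp, and below them for Rora and Nfil3. The part of the library sets in these orders was not tested. Bhlhe40, Bhlhe41, Ciart and Tef shared with Dbp the highest library, CONT replicate 1. The replicate numbers are names only.

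**Figure D3:**
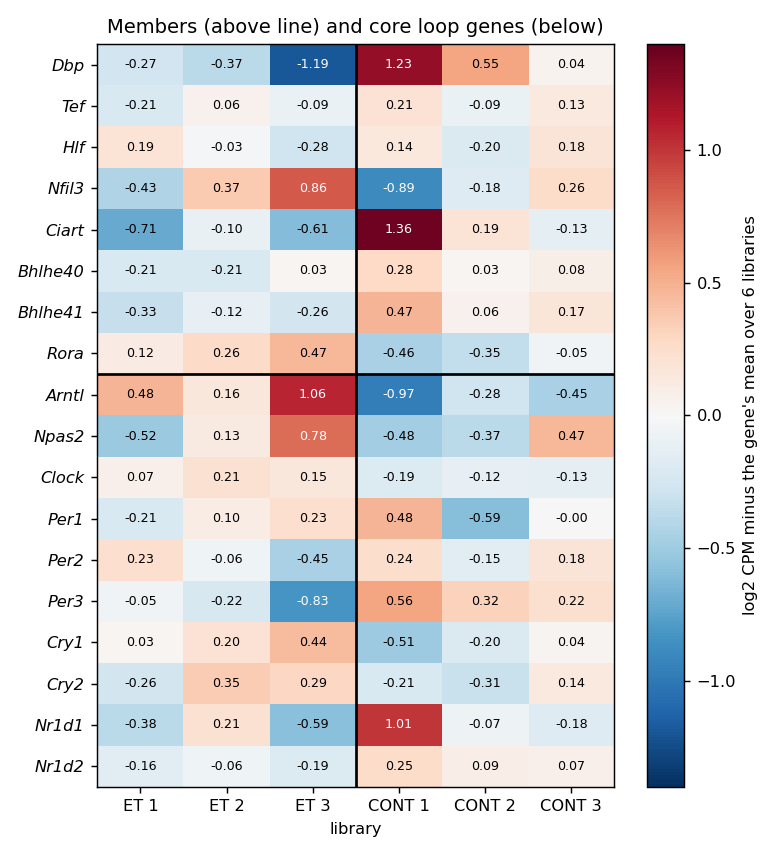
log2 CPM minus each gene's mean over the 6 libraries (colour and printed value) for the 8 members above the line and 10 core loop genes below it, with ET libraries left and CONT libraries right. Dbp and Per3 stood at -1.19 and -0.83 in ET replicate 3, against 1.23 and 0.56 in CONT replicate 1, while Arntl stood at 1.06 in ET replicate 3 and -0.97 in CONT replicate 1.

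The core loop, which drives these outputs, was measured beside them. Of its 16 listed genes 15 had enough counts, and edgeR's quasi-likelihood test called 0 higher and 0 lower (lowest adjusted p 0.508), with 0 called by DESeq2 and a median log2 fold change of 0.18. Arntl, which encodes BMAL1, had 2.53, 2.03 and 3.81 CPM in ET and 0.930, 1.498 and 1.33 CPM in CONT (log2 fold change 1.16 ± 0.34, adjusted p 0.508). Per3, a period gene with the pair of D-boxes shown above, had 33.7, 29.8 and 19.6 CPM in ET and 51.2, 43.4 and 40.5 CPM in CONT (-0.70 ± 0.22, adjusted p 0.515). Its libraries stood in the same order as those of Dbp, and whether the D-boxes have a part in this was not tested. Clock had 0.29 ± 0.11 and Nr1d2, which encodes REV-ERB beta, had -0.27 ± 0.14, with groups that did not overlap in either gene, though Nr1d2 did overlap with library totals and in TPM. Nr1d1 (-0.57 ± 0.37), Npas2 (0.28 ± 0.44), Per1 (0.03 ± 0.28), Per2 (-0.16 ± 0.20), Cry1 (0.44 ± 0.19) and Cry2 (0.27 ± 0.21) overlapped between the groups. With library totals and in TPM, however, Cry1 lay above CONT in every ET library. The median of all genes was itself shifted on such scales, to 0.12 with library totals and 0.15 on log2(TPM + 1). None of these core loop genes passed the test.

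Genes further downstream did not pass the test across all genes either. Of 13 listed genes linked to D-box factors, 9 had enough counts, and edgeR called 0 higher and 0 lower. The median log2 fold change was 0.34 with 8 of 9 above 0, where 8160 of all 15727 genes tested lay above 0. The list was chosen with earlier results of these data known, so nothing is read from that count. Por, the reductase that feeds electrons to cytochromes P450, had 55.7, 58.2 and 50.2 CPM in ET and 35.5, 36.3 and 39.4 CPM in CONT (0.56 ± 0.13, adjusted p 0.469), and was the 1 gene of the list called by DESeq2. Alas1, the first enzyme of haem synthesis, had 51.1, 114 and 73.7 CPM in ET and 109.9, 132 and 136 CPM in CONT (-0.66 ± 0.29). Cyp2b10 had 1.47 ± 0.56 at 1.17 CPM or less, and Pdxk, the pyridoxal kinase, had 0.30 ± 0.20. Por and Alas1 thus stood on opposite sides of 0, and neither passed.

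Of 14 rhythmic output genes, all with enough counts, edgeR called 0 higher and 0 lower. The median was 0.67 with 12 above 0, where 8160 of all 15727 genes tested lay above 0. This list too was chosen with earlier results of these data known, so nothing is read from the count. Cdkn1a, an inhibitor of the cell cycle, had a log2 fold change of 1.398 ± 0.28, and Lonrf3, a RING finger protein, had 1.46 ± 0.31 with 1.73, 1.38 and 1.82 CPM in ET and 0.465, 0.674 and 0.651 CPM in CONT. Fkbp5, a chaperone partner of steroid receptors and a glucocorticoid target, had 71.9, 105 and 106 CPM in ET and 14.1, 40.3 and 47.4 CPM in CONT (1.48 ± 0.43). Fmo2, a flavin monooxygenase, had 1.21 ± 0.38, with 2.16 in set 1 and 0.25 in set 2. Its highest library was ET replicate 1, where fibroblast markers were also highest, and the part of these cells was not tested. The edgeR adjusted p of these 4 genes was 0.427 to 0.515. DESeq2, which called 1.2% of all genes, called 3 of them, Cdkn1a, Lonrf3 and Fkbp5. Of 10 close relatives of the members, edgeR called 0 and DESeq2 called 1, Hey2, a bHLH repressor of the Notch pathway at 0.86 ± 0.17. Among the C/EBP relatives of the PAR bZIP factors Cebpd had 0.97 ± 0.34, and of the hairy-related genes Hes1 had -0.41 ± 0.23 and Hey1 -0.72 ± 0.41.

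The genes whose library pattern was closest to a member were found by the mean absolute difference of centred log2 CPM over the 6 libraries. For Dbp, 2626 genes of comparable range with a mean of at least 1 CPM were compared, and the closest were Upp1 (0.118), Mndal (0.131), Nos2 (0.144) and Scarf1 (0.145). Mndal, an interferon-inducible gene, had 13.8, 14.6 and 6.90 CPM in ET and 32.0, 25.1 and 15.0 CPM in CONT, and so shared the highest and the lowest library with Dbp. For Nfil3 the closest of 4548 genes were Tnik (0.0821), Mtm1 (0.0959), Klhl21 (0.101) and Wnk2 (0.108). Like Nfil3, each of these genes split by library set, with every library of set 1 below every library of set 2. Tnik had 14.7, 25.6 and 30.9 CPM in ET and 11.8, 18.5 and 24.4 CPM in CONT. For Rora the closest of 9077 genes were Mpp6 (0.0480), Chp1 (0.0496), Lrrc58 (0.04998) and Dennd4c (0.0531). These genes are listed as a description, and how close the nearest genes of other genes lie was not measured.

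The effective length of some members differed between libraries. The log2 ratio of mean effective length, ET over CONT, was -0.36 for Hlf and -0.13 for Ciart and lay between -0.07 and 0.09 for the other 6 members. Dbp, at -0.02, had a log2 ratio of -0.99 in mean TPM against its -1.24 in CPM, and on log2(TPM + 1) the median of all genes itself lay at 0.15. Nfil3, with 1 annotated transcript of 2026 bases, had 1950 to 1953 bases in all 6 libraries, and Dbp stayed between 1388 and 1470. Hlf, with 6 annotated transcripts of 245 to 5642 bases, had 3490, 5013 and 3734 bases in ET and 5236, 5520 and 4929 bases in CONT. The Hlf length was thus shortest in ET replicates 1 and 3, while ET replicate 2 overlapped with CONT. In TPM, Hlf had 10.2, 5.4 and 5.43 in ET and 4.99, 3.56 and 6.16 in CONT. Bhlhe41 followed the library sets, with 5352 bases in ET replicate 1 and 4841 and 4801 in CONT replicates 1 and 2, but 3865 and 4024 in ET replicates 2 and 3 and 3959 in CONT replicate 3. Tef also split by set, over a narrower range, with 2853 to 3009 bases in set 1 and 3074 to 3153 in set 2. Bhlhe40 did so too, with 3016 to 3018 bases in set 1 and 2685 to 2973 in set 2. For Ciart the shortest was 895 bases in ET replicate 3, and the other libraries had 1112 to 1304. The files hold values per gene, so which transcripts lie behind these lengths was not analysed here.

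**Figure D4:**
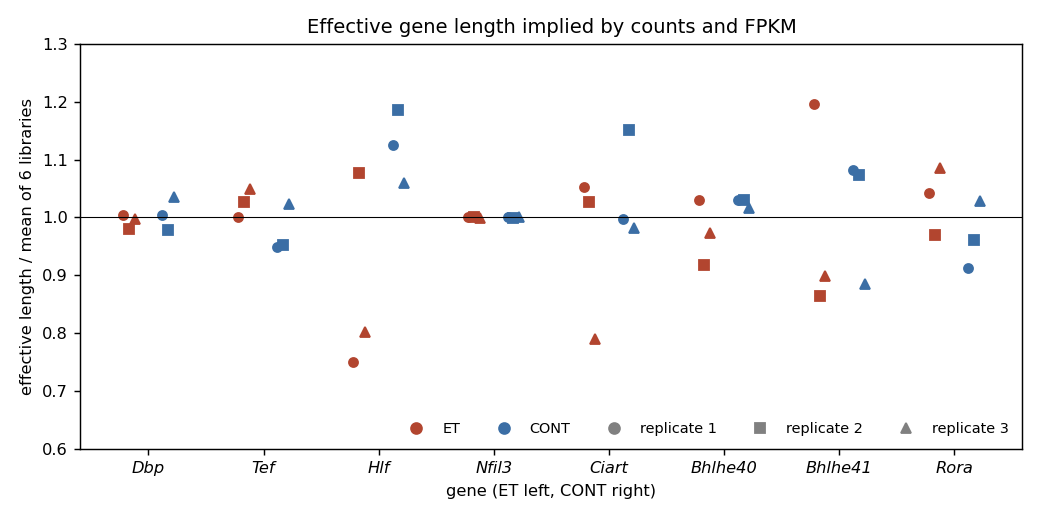
Effective length of each member in each library, divided by the gene's mean over the 6 libraries (vertical axis, from 0.6), with ET points left of CONT points and marker shape for the replicate. Nfil3 and Dbp stayed near 1, and Hlf was low in ET replicates 1 and 3. Bhlhe41 split by library set, and so, less widely, did Tef and Bhlhe40.

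**Figure D5:**
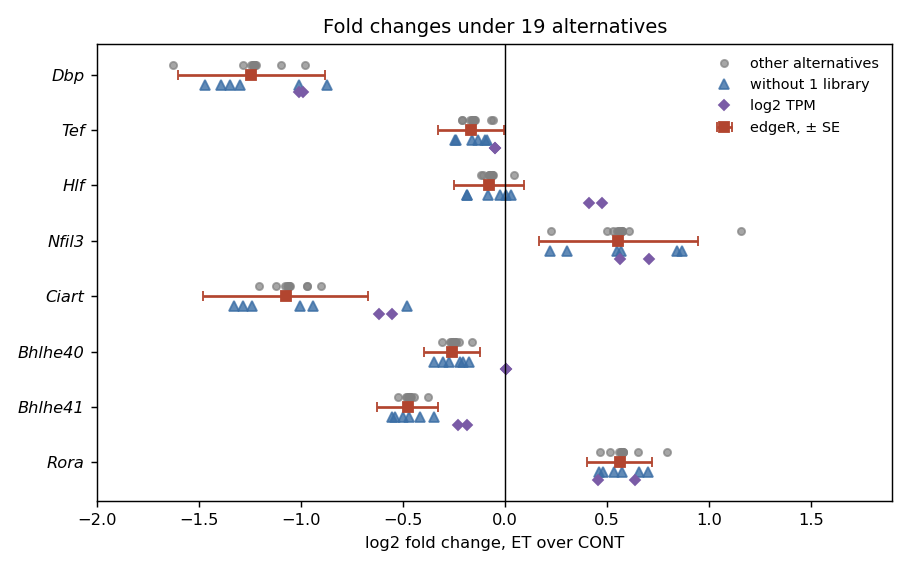
log2 fold change of each member (horizontal axis, ET over CONT) in the edgeR fit with its SE (squares), without 1 library (triangles), on log2 TPM (diamonds) and under the other alternatives (circles). Dbp, Tef, Ciart and Bhlhe41 stayed below 0 and Nfil3 and Rora above 0 in all 19 alternatives, while Hlf and Bhlhe40 took the other sign on log2 TPM.

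Over the 19 alternatives the log2 fold change of Dbp lay between -1.63 and -0.87, that of Ciart between -1.33 and -0.48, that of Bhlhe41 between -0.56 and -0.19 and that of Tef between -0.24 and -0.05. Rora lay between 0.46 and 0.79 and Nfil3 between 0.22 and 1.16. Hlf, at -0.19 to 0.47, and Bhlhe40, at -0.35 to 0.0032, took both signs.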

How the data were processed

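The submitters' processing notes list STAR 2.7.0f, RSEM 1.2.31 and the mm10 build; neither the annotation release nor the strand setting is stated in them. The deposited matrix holds expected counts per gene, made by the authors with RSEM and not normalized, of which 66.4% of nonzero values were whole within 0.005. They also deposited TPM and FPKM per library, both scaled by the authors for gene length and library size. The 8 members and all lists were chosen with earlier results of these data known.

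Expected counts were rounded. The filter was filterByExpr of edgeR (at least 10 counts, 15 in total), and CPM was scaled by TMM factors. The main test was the robust quasi-likelihood test of edgeR, ET over CONT, with no covariate, two-sided, adjusted by Benjamini-Hochberg over 15727 genes with a threshold of 0.05; the SE is the log2 fold change divided by the root of F. Effective length is expected count over FPKM, scaled by library total. Average linkage over the effective lengths of 8128 well-covered genes gave the library sets. Alternatives were RLE, upper-quartile and no factors, no and stricter filters (1 CPM in 3 libraries), limma-voom, DESeq2, limma-trend over TPM on the log2 scale (pseudocounts 1 and 0.1, mean TPM of at least 0.5), scaling without mitochondrial transcripts or without the 10 genes of highest count, each library left out, a term for the set, and omission of both ET replicate 1 and CONT replicate 3. Named beside the members are the core loop factors, per other list the 4 genes of lowest p (none passed), and the 4 genes closest in pattern to Dbp, Nfil3 and Rora, with a centred log2 range of at least that of the member divided by 2. Coordinates and exon overlaps are from GENCODE vM21 (GRCm38), promoter windows from RefSeq (GRCm38.p6). Tests ran in R 4.3.3 (DESeq2 1.42.0, edgeR 4.0.16, limma 3.58.1) and summaries in pandas 2.3.3 under Python 3.11.15, with figures by matplotlib 3.10.9.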

Additional observations from a re-analysis of the deposited data

How the results depend on the processing

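No gene was called at an adjusted p under 0.05 in edgeR with any scaling or filter, with limma-voom, with the term for the library set, or without any 1 library (0 to 0). DESeq2 called 185 genes, limma-trend on log2(TPM + 0.1) called 2, and edgeR without CONT replicate 3 and ET replicate 1 together called 828, where the remaining groups coincide with the library sets and cannot be told apart from them. In the lists, DESeq2 called 1 of 9 genes linked to D-box factors, 3 of 14 rhythmic outputs and 1 of 10 close relatives. The edgeR fit without both libraries called 828 of 15714 genes. In the lists it called 1 of 15 core loop genes, 2 of 9 D-box-linked genes, 3 of 14 rhythmic outputs and 0 of 10 close relatives. Of the members it called Rora alone (edgeR adjusted p 0.0358). The members were chosen on this contrast and the lists with earlier results known, so nothing is read from these calls. Of 152 alternative values of the members, 142 kept their sign and moved by less than the spread between replicates, 3 moved further and 7 changed sign. The spread was each gene's own SD of log2 CPM within groups, from 0.14 for Bhlhe40 to 0.62 for Nfil3. It is a loose limit for the genes that vary most. The -0.48 of Ciart without CONT replicate 1 stayed within it. Hlf changed sign with library totals only (0.044), on log2(TPM + 1) (0.41) and log2(TPM + 0.1) (0.47), and ranged from -0.19 to 0.031 without 1 library. Bhlhe40 was 0.0025 and 0.0032 on the log2 TPM scales. The core loop median ranged from -0.011 to 0.29 without 1 library. The causes were not tested. No paired analysis was possible because the replicate numbers only follow accession order and the labels pair no samples. With 3 libraries per group, fold changes of Nfil3 and Ciart have the widest SE of the members.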
